A study of Mus musculus with 12 samples.

Results

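The 5 genes Klf2, Klf4, Nos3, Edn1 and Piezo1, which sense flow or respond to it in endothelium, were followed across the vessels, lymphatics and lymphocytes of mouse lymph node. They were chosen by symbol and not by a cut on their values, as 5 of the 32285 genes listed in all libraries. Earlier results of these data were known when they were chosen. Piezo1 encodes a mechanically gated cation channel of the plasma membrane. Klf2 and Klf4 encode zinc-finger transcription factors that steady laminar flow induces in endothelium. Nos3 encodes endothelial nitric oxide synthase, a known output of both factors, and Edn1 encodes the precursor of endothelin-1, a vasoconstrictor peptide that both factors are known to restrain.

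The data were 12 single-cell RNA libraries, 1 for each combination of fraction, treatment and genotype label, from C57BL/6 mice aged 7 to 10 weeks. All mice carried the ATG12 fl/fl alleles, a floxed autophagy gene, all received tamoxifen, and they were labelled positive or negative for CDH5 CreER, a tamoxifen-inducible Cre recombinase under a promoter active in endothelium generally, lymphatic included. Oxazolone, a contact sensitiser, was put on abdominal skin at 4% with collection of the nodes on day 3 or day 7, while vehicle mice received the solvent alone. The day of the vehicle nodes and the number of mice in each library are not given in the sources used here. After enzyme digestion at 37 °C the cells were split with CD45 beads and sorted, into an endothelial fraction (6 CD31 libraries) and an immune fraction (6 CD45 libraries). Groups are called "labelled Cre-positive" or "labelled Cre-negative" because the 3-prime counts of Atg12 cannot check the deletion. Each group was 1 library. The label difference was therefore fitted with the 3 treatments as its replicates and each treatment difference with the 2 labels, so p-values measure the spread between these libraries only.

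In endothelium, flow reaches the nucleus through junctional and membrane sensors and a kinase cascade that ends in ERK5 and the MEF2 factors, which switch on Klf2 and Klf4. The genes these factors induce make a vessel quiescent, vasodilating and resistant to clotting. Klf2 has a separate known part in lymphocytes, where it holds naive T cells at rest and maintains S1pr1, the receptor that lymphocytes need to leave nodes. Klf2 and Klf4 are also early-response genes, and digestion of live tissue at body temperature is known to move both.

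Total depth ran from 36724887 to 76187731 UMIs (molecule counts) per library, and 46508 cells of the CD31 libraries and 42546 of the CD45 libraries were kept. Cell classes were named from marker genes, after clustering that did not use these 5 genes, and carry the suffix "-like" because no annotation by the authors was used. The marker levels matched the names in part. Glycam1, the HEV sialomucin, had a median of 20356 CPM (counts of the gene scaled to a class total of 1000000 UMIs) in HEV-like cells. Prox1, the lymphatic regulator, had one of 2.22 CPM there, against 771 CPM in ceiling lymphatic-like cells. HEV stands for high endothelial venule, where lymphocytes enter the node. Glycam1 was also at a median of 10734 CPM in the floor lymphatic-like class, whose Prox1 was 745 CPM. Ptprc, the CD45 gene, had medians of 0 to 15.1 CPM in the endothelial classes. The arterial marker Bmx did not set arterial-like cells (193 to 291 CPM) apart from ceiling cells (160 to 245 CPM). Prox1, with a median of 2.67 CPM in arterial-like cells, did. Ackr4, the ceiling marker, had medians of 1029 CPM in ceiling and 243 CPM in medullary lymphatic-like cells. The broader blood endothelial-like class contains the HEV-like, capillary-like, arterial-like and venous-like cells and blood endothelial cells of no named type. The lymphatic-like class contains the ceiling, floor and medullary ones, so these classes are not independent. A capillary cluster led by haemoglobin genes made up 0.942% to 8.25% of a CD31 library, most in the day 3 library labelled Cre-negative, and a mixed cluster with few UMIs 0.212% to 19.7%, most in the day 3 library labelled Cre-positive. Both were left out of the classes. In the CD45 libraries a group with mixed markers was left out too. It made up 11.2% and 8.56% of the day 3 libraries, label negative first, and 1.23% to 2.56% of the others. Cells with both T and natural killer cell genes, 2.69% to 3.58% of a CD45 library, were also left unnamed. Pairs of libraries shared between 6 and 28 cell barcodes, at most 0.384% of the smaller library.

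The 5 genes are protein-coding and lie, on GRCm38, at chr8:72319033-72321656 on the plus strand (Klf2, 3 exons), chr4:55527143-55532466 on the minus strand (Klf4, up to 5 exons), chr5:24364810-24384474 on the plus strand (Nos3, up to 26 exons), chr13:42301476-42307990 on the plus strand (Edn1, 5 exons) and chr8:122481698-122551329 on the minus strand (Piezo1, up to 51 exons). The promoters of Klf2 and Klf4 are shown because these genes had the most similar levels to each other over the endothelial class sums, as given further on. They are the bases upstream of the start site in RefSeq (GRCm38.p6), 5′ to 3′ in gene direction, at chr8:72318812-72319032 for Klf2 (221 bases, plus strand) and chr4:55532476-55532725 for Klf4 (250 bases, minus strand), with motif matches in capitals.
Klf2: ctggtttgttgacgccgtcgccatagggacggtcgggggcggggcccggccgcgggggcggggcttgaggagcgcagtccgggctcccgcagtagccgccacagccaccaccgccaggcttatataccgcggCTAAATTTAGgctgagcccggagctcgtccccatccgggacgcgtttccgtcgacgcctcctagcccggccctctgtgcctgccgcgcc
Klf4: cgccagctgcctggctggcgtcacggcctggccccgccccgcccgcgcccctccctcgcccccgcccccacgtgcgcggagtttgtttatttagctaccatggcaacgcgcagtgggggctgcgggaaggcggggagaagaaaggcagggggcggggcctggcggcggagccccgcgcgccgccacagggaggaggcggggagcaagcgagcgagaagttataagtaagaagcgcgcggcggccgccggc
The capitals in Klf2 mark CTAAATTTAG, a match to the MEF2 consensus on both strands, 118 to 109 bases before the start. The MEF2 consensus was found in 167 of 32851 mouse promoters of the same table (0.508%). The Klf4 window held no match to it. CACCC, the core bound by Kruppel-like factors, was found on the reverse strand of the Klf2, Edn1 and Piezo1 windows (for Klf2 in the last 29 bases before the RefSeq start, left out above because they overlap an annotated transcript), and 52% of all promoters held it. TGANTCA, the AP-1 core that Fos and Jun bind, was in none of the windows and in 6.75% of all promoters. GC content was 71.2% for Klf2, 74% for Klf4 and Piezo1 and 50.4% for Edn1. The Nos3 promoter is named only. A match here describes letters in a window and not a bound site.

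Among the endothelial classes compared, Klf2 and Klf4 had their highest medians in arterial-like and ceiling lymphatic-like endothelium, followed by capillary-like, venous-like and HEV-like cells. The lowest medians of both genes among these classes were in floor lymphatic-like cells. The few venous-like cells, 7 to 34 in a library, had medians of 545 CPM for Klf2 and 342 CPM for Klf4. Ceiling and capillary-like cells did not differ beyond their spread for either gene. Klf2 in the arterial-like class was 1180, 1575, 794, 1071, 1305 and 1232 CPM, listed as vehicle, day 3 and day 7 and, inside each treatment, label negative first and positive second, a sequence kept below. In capillary-like cells it was 621, 744, 589, 544, 754 and 818 CPM. In HEV-like cells it was 418, 349, 319, 401, 468 and 526 CPM, below the capillary-like value in all 6 libraries. The 3 classes kept the order arterial-like, capillary-like, HEV-like in every library. The mean log2 difference was 0.80 ± 0.25 (SD, n = 6 libraries) from arterial-like to capillary-like and 0.72 ± 0.23 from capillary-like to HEV-like.

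Klf4 followed the same order. Its values were 527, 739, 385, 412, 561 and 553 CPM in arterial-like cells. They were 314, 450, 259, 257, 460 and 424 CPM in capillary-like cells, and 222, 222, 93.9, 169, 245 and 264 CPM in HEV-like cells. The arterial-like and capillary-like ranges overlap across libraries, while within each library arterial-like cells were higher. The mean log2 difference was 0.57 ± 0.19 (SD, n = 6) between those classes and 0.86 ± 0.35 between capillary-like and HEV-like cells.

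Among lymphatics, the ceiling class, which lines the outer sinus wall and is marked by Ackr4, and the floor class, which faces the node and is marked by Madcam1, lay far apart. Klf2 was 802, 1407, 534, 1548, 836 and 1112 CPM in the ceiling and 229, 382, 70.6, 258, 263 and 155 CPM in the floor class. Klf4 was 314, 745, 202, 626, 463 and 384 CPM in the ceiling and 107, 161, 28.9, 71.2, 102 and 124 CPM in the floor. No floor value reached the lowest ceiling value for either gene. The log2 difference was 2.28 ± 0.56 (SD, n = 6) for Klf2 and 2.25 ± 0.62 for Klf4. Medullary lymphatic-like cells, which carry Marco, were between them, with medians of 350 CPM for Klf2 and 216 CPM for Klf4. The dissociation list described further on did not follow that order: summed over 19 genes it was 7923, 13116, 4638, 13177, 10749 and 5622 CPM in the ceiling and 10482, 13909, 5159, 10700, 8650 and 9959 CPM in the floor. These sums do not show whether digestion moved Klf2 and Klf4 alike in both classes, which was not tested.

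Nos3 separated the classes more widely than its libraries. It was 133, 113, 173, 154, 111 and 141 CPM in arterial-like cells and 110, 129, 153, 139, 140 and 139 CPM in ceiling lymphatic-like cells, and these ranges coincide. Capillary-like cells had 58.6, 60.4, 69.8, 56.3, 46 and 58.5 CPM and HEV-like cells 35.9, 29.3, 32.4, 33.5, 25 and 42.3 CPM. Floor lymphatic-like cells had 20.5, 9.34, 11.1, 12.7, 8.01 and 10.5 CPM. The venous-like class, of only 7 to 34 cells in a library, had a median of 169 CPM. The log2 difference was 1.24 ± 0.18 (SD, n = 6) from arterial-like to capillary-like, 0.82 ± 0.24 from capillary-like to HEV-like and 3.52 ± 0.58 from ceiling to floor.

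Edn1 was the member most restricted to particular vessels. Arterial-like cells had 301, 384, 272, 298, 335 and 223 CPM, ceiling lymphatic-like cells 199, 186, 236, 269, 240 and 98.8 CPM and medullary lymphatic-like cells 132, 138, 210, 133, 111 and 123 CPM. Venous-like cells had a median of 317 CPM. Capillary-like cells had 18, 19.8, 22.3, 36.8, 13.7 and 26.2 CPM, HEV-like cells 5.06, 5.09, 11.1, 9.49, 3.69 and 21.3 CPM, and floor lymphatic-like cells 6.02, 5.71, 2.55, 5.08, 0 and 7.58 CPM. The gap of 3.78 ± 0.65 (SD, n = 6) on the log2 scale between arterial-like and capillary-like cells was larger than their spread over libraries. Within the Edn1 axis the converting enzyme Ece1 was present in all vessels, at medians of 422 CPM in arterial-like, 222 CPM in ceiling and 186 CPM in HEV-like cells, and the receptor gene Ednrb was at 165 CPM in ceiling and 4.06 CPM in HEV-like cells.

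Piezo1 was at like levels in arterial-like, capillary-like and HEV-like cells and higher in the few venous-like cells. It was 90.3, 80.9, 105, 93.2, 102 and 76.8 CPM in arterial-like cells. It was 121, 129, 117, 88.2, 107 and 116 CPM in capillary-like cells and 96.3, 116, 102, 99.3, 88.5 and 102 CPM in HEV-like cells. These 3 ranges overlap, and the HEV-like class, low for the other members, did not stand below the arterial-like one. Venous-like cells had 150, 215, 229, 163, 226 and 171 CPM, from 7 to 34 UMIs a library, above the arterial-like value in 6 of 6 libraries (log2 difference 1.11 ± 0.24). Blood endothelial cells of no named type had 124 to 144 CPM, also above the arterial-like and HEV-like ranges. Ceiling lymphatic-like cells had 139, 139, 175, 116, 126 and 135 CPM, and floor lymphatic-like cells 47.5, 42.5, 42.5, 51.7, 41.8 and 53.1 CPM, with no overlap between them and a log2 difference of 1.56 ± 0.30 (SD, n = 6).

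**Figure D1:**
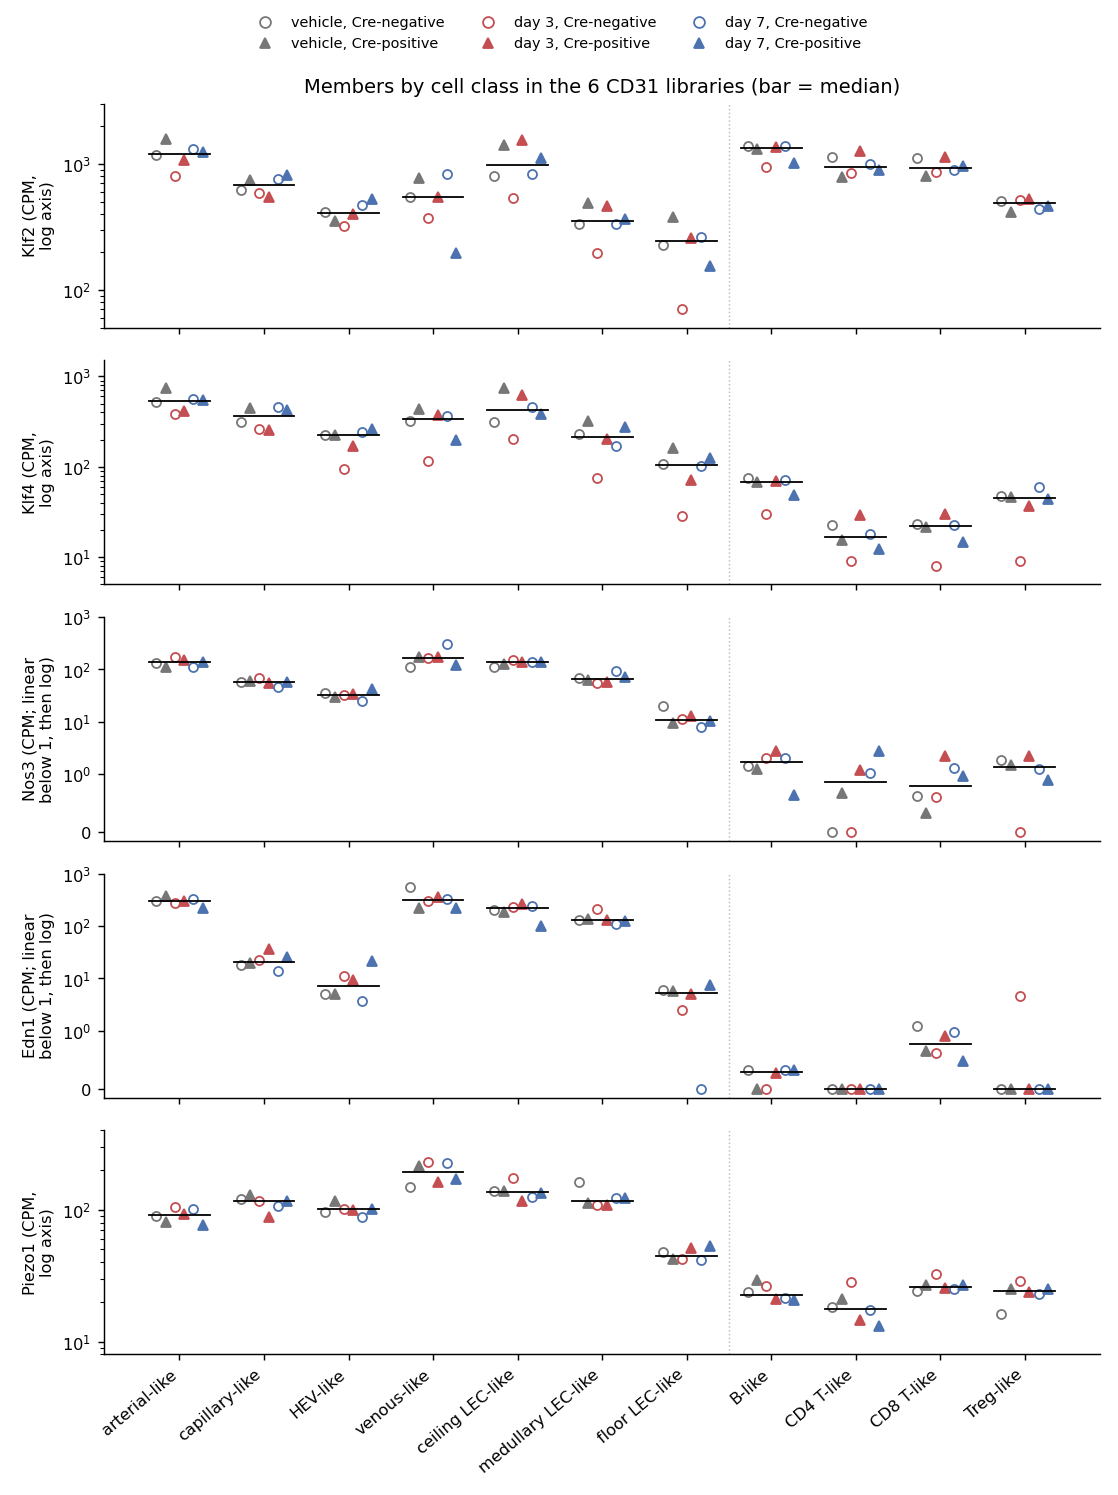
Level of each gene (CPM of the summed UMIs of a class; log axis for Klf2, Klf4 and Piezo1, linear below 1 CPM and log above for Nos3 and Edn1) in 7 endothelial and 4 lymphocyte classes of the 6 CD31 libraries; each point is 1 library, bars are medians, LEC is lymphatic endothelial cell and the dotted line divides endothelium from lymphocytes. Klf2 in B-like cells lies at the level of arterial-like cells, whereas Nos3 and Edn1 medians in lymphocytes stay at or below 1.72 CPM.

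The order of classes was tested on the paired log2 ratios of the 6 libraries (0.5 UMIs added to each sum) with a two-sided exact sign-flip permutation test, whose smallest possible p is 0.0312. Of 50 pairs of neighbours in the order of the 5 genes, 16 reached that p and 0 passed the adjustment over the 50 (smallest adjusted p 0.0977). When every pair of the 11 classes of the CD31 libraries was tested, a choice made after the data were seen, 217 of 275 pairs passed, each at the smallest p and an adjusted p of 0.0396. They were 38 of 55 for Klf2, 46 for Klf4, 45 for Nos3 and 44 each for Edn1 and Piezo1. All of the gaps given above with their SD passed in that larger family. Among pairs that did not pass were arterial-like against ceiling lymphatic-like for Klf2 (log2 0.26 ± 0.44, exact permutation, adjusted p = 0.177), Klf4 (0.31 ± 0.56, adjusted p = 0.275) and Nos3 (-0.02 ± 0.23, ceiling minus arterial, adjusted p = 0.891). Ceiling against capillary-like cells did not pass for Klf2 (0.54 ± 0.59, exact permutation, adjusted p = 0.0757) or Klf4 (0.25 ± 0.62, adjusted p = 0.428). HEV-like against floor lymphatic-like cells did not pass for Klf2 either (1.02 ± 0.82, exact permutation, adjusted p = 0.0757), nor did capillary-like against HEV-like for Piezo1 (0.16 ± 0.17, adjusted p = 0.11).

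Single cells showed the same classes from another side. Klf2 had at least 1 UMI in a median of 85.5% of arterial-like, 67.7% of capillary-like, 65.4% of HEV-like, 68.5% of ceiling and 41.1% of floor lymphatic-like cells. Depth differed, with median UMIs per cell of 3840 in arterial-like and 8609 in HEV-like cells. Thinned to 1000 UMIs a cell, the Klf2 shares were 59%, 39.9%, 25.9%, 39.2% and 12.5% in the same order, so the HEV-like and capillary-like shares, close before thinning, moved apart. Klf4 thinned to 33.5%, 25.4%, 17.4%, 24.8% and 8.7%. Piezo1, at 55.6% of HEV-like and 28% of arterial-like cells before thinning, came to 9.14% and 8.06%. Edn1 was found in 40.3% of arterial-like, 3.63% of capillary-like and 3.06% of HEV-like cells, and in a median of 0.101% of B-like cells, a type that should lack Edn1, from those libraries.

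Free RNA bears on the low values. In barcodes of 10 to 100 UMIs of the CD31 libraries, the RNA outside cells held a median of 37.6 CPM of Nos3, 29.7 CPM of Edn1, 51.7 CPM of Piezo1, 481 CPM of Klf2 and 159 CPM of Klf4. The estimated share of free RNA in the class sums was 1.65% to 13% in HEV-like and 2.44% to 17.3% in floor lymphatic-like cells. After its subtraction Nos3 had medians of 32.9 CPM in HEV-like and 9.12 CPM in floor cells, and Edn1 6.26 and 2.3 CPM. CD4 T-like cells of the same CD31 libraries, exposed to the same free RNA, had medians of 0.866 CPM of Nos3 and 0 CPM of Edn1.

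Classes were not uniform inside. Of the 3 capillary-like clusters, 1 had 96.6 CPM of Nos3, 7.42 of Edn1 and 161 of Piezo1, the second 50, 26.5 and 96.9 CPM and the third 37.3, 33.1 and 90.3 CPM, so over these 3 Nos3 and Piezo1 had one order and Edn1 the opposite. Klf2 in the 3 was 683, 588 and 758 CPM. A cluster of 714 blood endothelial cells led by Col8a1 had 1169 CPM of Klf2 and 361 of Edn1, near the arterial-like values, and a cluster of 3662 led by Nav3 had 256 CPM of Klf2. At a finer resolution the arterial-like cells fell into clusters of 916 and 1508 CPM of Klf2, 192 and 452 of Edn1 and 102 and 204 of Nos3. A tip-like cluster of 585 cells, with sprouting markers, had 132 CPM of Klf2 and 78.3 CPM of Klf4. These are sums over all libraries and are given with no test.

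The genes with the most similar pattern over 42 class sums (7 endothelial classes in 6 libraries, 7182 genes of at least 20 CPM, Pearson r of log2 CPM + 1) were for Klf2 its relative Klf4 (r = 0.93), then Rhob (0.87) and Cdh13 (0.84). For Klf4 they were Klf2, Rhob (0.82) and Ltbp4 (0.82). Nos3 was nearest to Tspan9 (0.93), Ltbp4 (0.92) and Cracr2b (0.91), and Edn1 to Nos3 (0.91), Hs3st1 (0.89) and Gab2 (0.88). Piezo1 was nearest to Crim1 (0.91), Foxo1 (0.91) and Lfng (0.90). The 42 points share libraries and digestion, and these values only describe.

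Klf2 in B-like and natural killer-like cells was near the arterial-like level, and B-like, CD4 T-like and CD8 T-like cells had little Klf4 and almost no Nos3 or Edn1. Within the CD31 libraries Klf2 was lower in CD4 T-like than in arterial-like cells in 4 of 6 (arterial-like minus CD4 T-like 0.26 ± 0.45, SD, exact permutation adjusted p = 0.244). In the CD45 libraries Klf2 was 1410, 1374, 1001, 1301, 1481 and 1040 CPM in B-like cells. It was 1192, 773, 905, 1231, 1054 and 939 CPM in CD4 T-like and 1056, 758, 973, 1148, 1019 and 913 CPM in CD8 T-like cells. The 3 ranges overlap, while within each library B-like cells were above both T-cell classes, in 6 of 6 (0.32 ± 0.29 over CD4 T-like and 0.37 ± 0.30 over CD8 T-like cells, SD, exact permutation adjusted p = 0.0608 for each). Natural killer-like cells had a median of 1394 CPM, regulatory T-like cells 537 CPM and cycling T-like cells 360 CPM, and the ranges of these last classes, 422 to 600 and 327 to 530 CPM, lay below all 6 CD4 T-like values. Germinal-centre B-like cells, of which the libraries held 210, 18, 21, 26, 9 and 252, had a median of 242 CPM against 1338 CPM in B-like cells.

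Klf4 in the same libraries was 70.6, 70.1, 32.3, 63.8, 67.1 and 49 CPM in B-like cells and 11.9, 10.3, 5.89, 12.7, 12.4 and 8.83 CPM in CD4 T-like cells. A T-cell cluster led by gamma-delta genes stood above the other T cells with a median of 114 CPM. Fibroblast-like and monocyte-like cells had Klf4 medians of 332 and 322 CPM, which overlap the endothelial range, and dendritic-like cells one of 63 CPM. Piezo1 was 16.7, 23.6, 24.1, 22.6, 20.8 and 21.9 CPM in CD4 T-like and 20.4, 24.2, 20.5, 26, 21.4 and 25.1 CPM in B-like cells, below every endothelial class. Nos3 and Edn1 stayed at or below 1.14 CPM and 0.207 CPM in the B-like, CD4 T-like and CD8 T-like classes of the CD45 libraries and were too low to be fitted there. In the all-pairs test of the CD45 classes 0 of 140 pairs passed (exact permutation, smallest adjusted p 0.0608, with the smallest p of 0.0312 again the limit).

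By treatment, no gene of the 5 passed the test in any class. Of 44 fits of day 3 against vehicle in 10 classes, 0 were called by edgeR's quasi-likelihood test at an adjusted p under 0.05. Of these fits 8 had an unadjusted p under 0.05, as had 5.1% to 24.2% of all genes tested in a class. Of 44 fits of day 7 against vehicle, 0 were called and 1 had an unadjusted p under 0.05, as had 0.723% to 4.05% of all genes tested in a class. The vehicle and day 7 libraries differed in immune make-up between labels. Germinal-centre B-like cells of the CD45 libraries numbered 210 and 18 in vehicle and 9 and 252 at day 7, label negative first. Plasma-like cells numbered 143 and 6 in vehicle and 3 and 152 at day 7. In the CD31 libraries, the source of the endothelial classes, plasma-like cells made up 3.12% and 0.206% in vehicle and 0.0796% and 1.97% at day 7. What lies behind these counts and shares was not tested, and every comparison takes the labels as given. DESeq2 called 2 of its 134 fits over the 3 comparisons, both of them Klf4 at day 3, in HEV-like and blood endothelial-like cells. There it called 6.95% and 3.46% of all genes to which it gave an adjusted p. In edgeR the share of all genes called at day 3 was 0% in blood endothelial-like, 2.1% in HEV-like, 0% in capillary-like, 3.82% in arterial-like, 0% in lymphatic-like, 0.0432% in ceiling, 0.00922% in floor, 0.0198% in CD4 T-like, 0.0281% in CD8 T-like and 0.175% in B-like cells. At day 7 it was 0% in all 10. The median log2 difference of all genes lay between -0.02 and 0.01.

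Klf4 had a value below vehicle at day 3 in 10 of 10 classes, which share libraries and in part cells. In some of these classes 1 library carried that direction. Without the day 3 library labelled Cre-negative the difference was 0.33 ± 0.36 in CD4 T-like and 0.17 ± 0.43 in ceiling lymphatic-like cells, and -0.08 in CD8 T-like, -0.03 in B-like and -0.01 in lymphatic-like cells, while in the other 5 classes it lay between -0.38 and -1.05. In HEV-like cells, where the day 3 values of 93.9 and 169 CPM were below both vehicle values of 222 CPM, the log2 difference was -0.77 ± 0.22 (SE, edgeR adjusted p = 0.0862). In arterial-like cells 385 and 412 CPM stood against 527 and 739 CPM (-0.61 ± 0.18, edgeR adjusted p = 0.0666). In capillary-like cells 259 and 257 CPM stood against 314 and 450 CPM (-0.51 ± 0.19, edgeR adjusted p = 0.413). The values were -0.54 ± 0.14 in the blood endothelial-like class (edgeR adjusted p = 0.117), -1.44 ± 0.29 in the floor class (0.539), -0.57 ± 0.26 in B-like (0.533), -0.65 ± 0.30 in CD8 T-like (0.697) and -0.37 ± 0.35 in CD4 T-like cells. Both day 3 values lay below both vehicle values in 5 of the 7 endothelial classes fitted, the exceptions being the ceiling and the combined lymphatic-like class. The 5 include the blood endothelial-like class, which contains HEV-like, capillary-like and arterial-like cells counted again. The share of all genes separated in this way was not counted, so the count is a description only. At day 7 Klf4 in HEV-like cells was 245 and 264 CPM, above both vehicle values (0.25 ± 0.21, edgeR adjusted p = 0.993), and its value was below vehicle in 7 of 10 classes.

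The day 3 difference of Klf4 crossed the threshold under other settings: in HEV-like cells with no low-count filter (-0.75, adjusted p = 0.000962, with 7.27% of all genes called) and in DESeq2 (-0.79, adjusted p = 0.0204), and in arterial-like cells without the vehicle library labelled Cre-negative (-0.82, adjusted p = 0.0256 in edgeR, with 5.38% of all genes called). With a library left out its treatment is 1 library, whose spread is assumed to be that of the other groups. Without the day 3 library labelled Cre-negative the HEV-like difference was -0.38 ± 0.20 and the arterial-like one -0.64 ± 0.22 (edgeR adjusted p = 0.427 and 0.219). Without the one labelled Cre-positive they were -1.22 ± 0.21 and -0.57 ± 0.23 (edgeR adjusted p = 0.0709 and 0.425), so the HEV-like value depends on which day 3 library is kept. The difference between HEV-like and capillary-like cells in the Klf4 response was -0.37 ± 0.26 (edgeR adjusted p = 0.738).

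Klf2 was below vehicle at day 3 in 8 of 10 classes and above it in CD4 T-like and CD8 T-like cells, a count that rests on single libraries. Without the day 3 library labelled Cre-negative it was above vehicle also in HEV-like (0.13), lymphatic-like (0.23), ceiling (0.32) and B-like cells (0.04), with 0.51 in both T-cell classes, and without the one labelled Cre-positive it was below vehicle in CD4 T-like (-0.35) and CD8 T-like cells (-0.10). With all libraries its difference was -0.08 ± 0.16 in HEV-like, -0.22 ± 0.17 in capillary-like, 0.09 ± 0.16 in CD4 T-like and 0.21 ± 0.14 in CD8 T-like cells. In arterial-like cells, the only class with an unadjusted p under 0.05 for Klf2 at day 3, it was -0.52 ± 0.19 (edgeR adjusted p = 0.159). In floor lymphatic-like cells 70.6 and 258 CPM stood against 229 and 382 CPM (-0.95 ± 0.50, edgeR adjusted p = 0.738), with -0.19 ± 0.44 when the day 3 library labelled Cre-negative was left out and -2.13 ± 0.52 when the one labelled Cre-positive was. At day 7 HEV-like cells had 468 and 526 CPM, above the other 4 libraries (0.42 ± 0.16, edgeR adjusted p = 0.993). Whether Klf2 and Klf4 differ in their response was not tested.

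Nos3 in arterial-like cells was 173 and 154 CPM at day 3 against 133 and 113 CPM in vehicle (0.43 ± 0.18, edgeR adjusted p = 0.207), and 0.03 ± 0.21 in HEV-like cells. Edn1 in capillary-like cells was 22.3 and 36.8 CPM at day 3 against 18 and 19.8 CPM (0.65 ± 0.20, edgeR adjusted p = 0.371), while in arterial-like cells the difference was -0.21 ± 0.20. The response of Edn1 in arterial-like minus capillary-like cells was -0.87 ± 0.27 at day 3 (edgeR adjusted p = 0.335) and that of Piezo1 was 0.50 ± 0.20 (edgeR adjusted p = 0.556). The Edn1 difference at day 3 was -1.42 without the vehicle library labelled Cre-negative and -0.90 without either day 7 library. The fits without a day 7 library rest on the same vehicle and day 3 libraries and are not separate results. In cells without Fos, Fosb, Egr1 or Atf3 the Edn1 difference was called (-1.38, edgeR adjusted p = 0.0491, with 0.342% of all genes called). Edn1 in HEV-like cells was 11.1 and 9.49 CPM at day 3, from 61 and 60 UMIs. That was above the vehicle values of 5.06 and 5.09 CPM, from 20 UMIs each (1.07 ± 0.61, not called in the main edgeR fit). Piezo1 differed at day 3 by -0.25 ± 0.15 in capillary-like, -0.06 ± 0.13 in HEV-like and 0.26 ± 0.18 in arterial-like cells. Tests of a difference in response called 0% of genes between HEV-like and capillary-like cells for label, day 3 and day 7, and 0.017%, 0.162% and 0.00852% between arterial-like and capillary-like cells. Between blood endothelial-like and lymphatic-like cells the shares were 0%, 0.0142% and 0%.

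**Figure D2:**
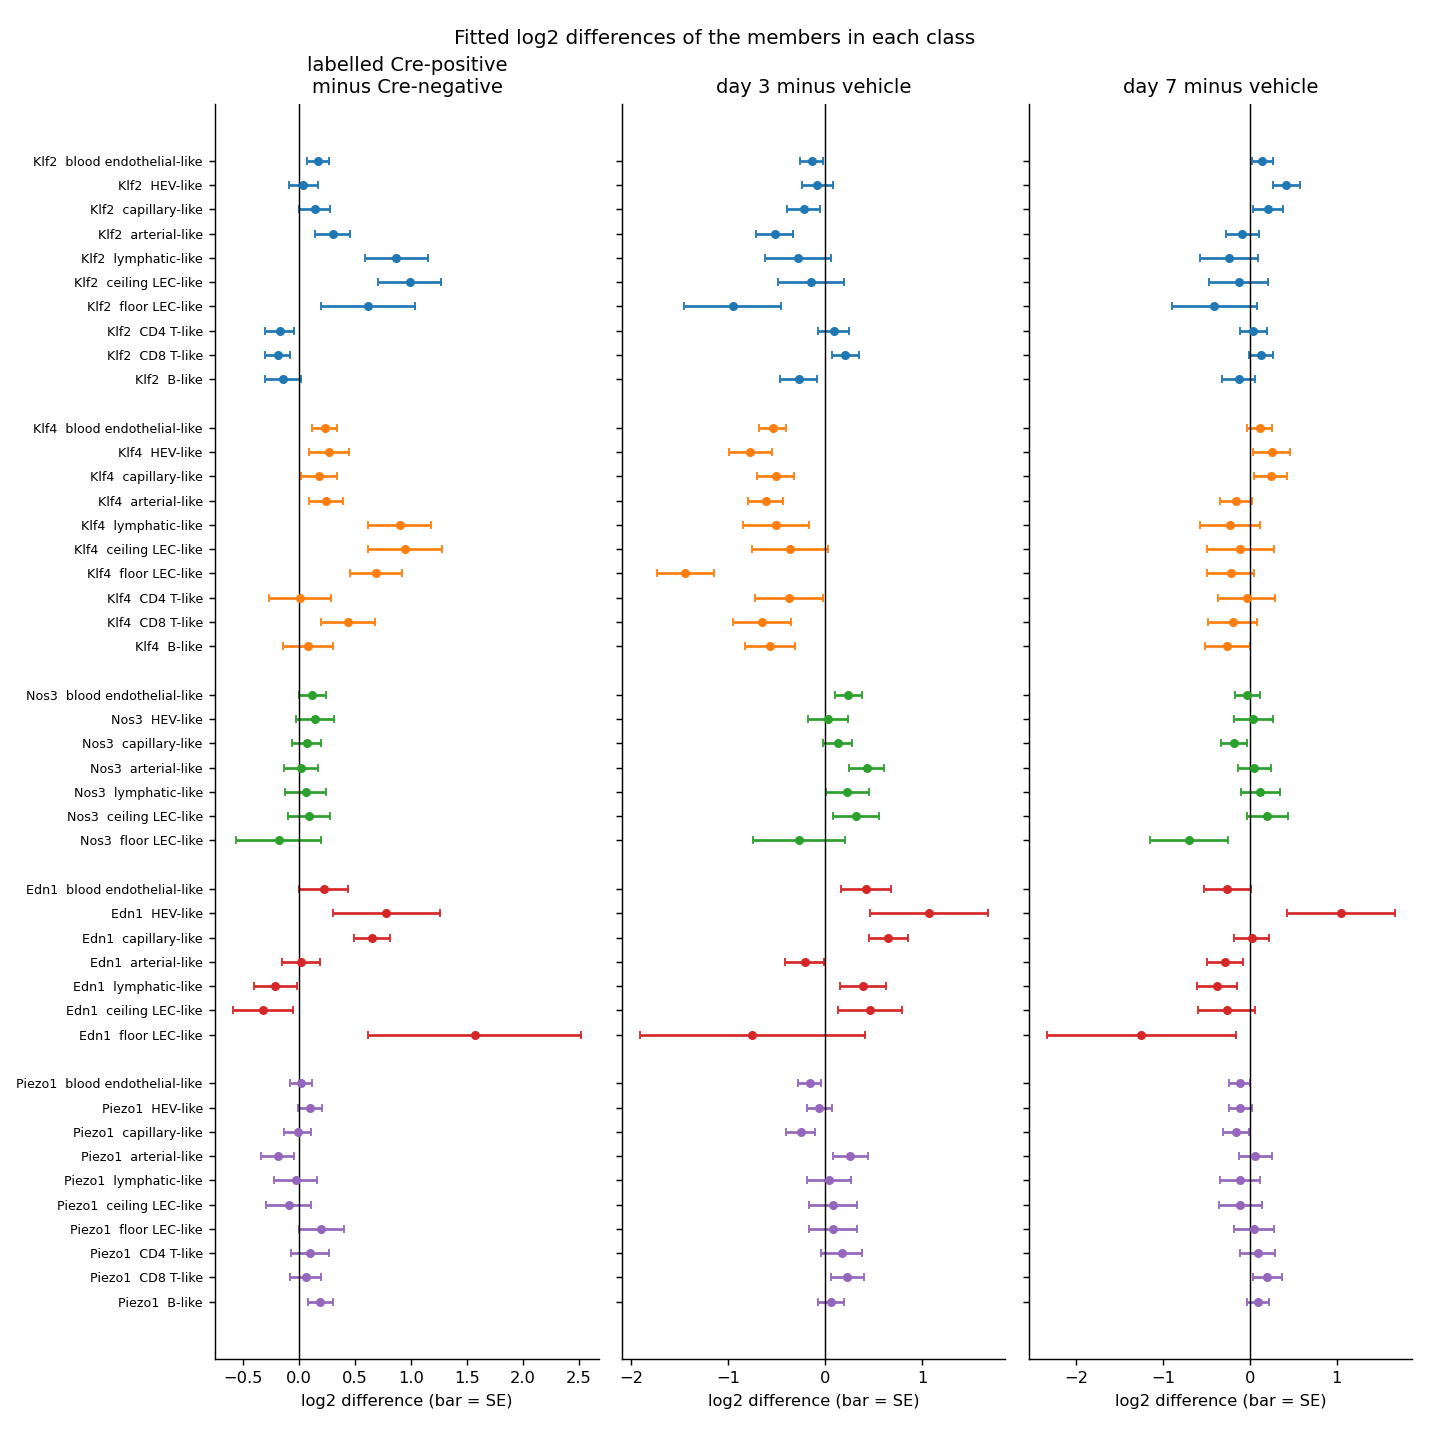
Fitted log2 differences (x axis, bars are SE) of the 5 genes in up to 10 classes (rows) for the genotype label, day 3 and day 7; LEC is lymphatic endothelial cell. All 10 Klf4 rows lie left of 0 at day 3, Klf2 and Klf4 lie farthest right by label in the lymphatic rows among their own rows, and no row passed the adjusted test.

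By genotype label, the largest differences of Klf2 and Klf4 were in ceiling lymphatic-like cells. Of 44 fits 0 were called and 6 had an unadjusted p under 0.05 in edgeR, as had 2.17% to 15.6% of all genes tested in a class. The share of all genes called was 0.00677% in blood endothelial-like, 0.0251% in HEV-like, 0% in capillary-like, 0.0103% in arterial-like, 0.00753% in lymphatic-like, 0.0259% in ceiling, 0% in floor, 0.357% in CD4 T-like, 0.272% in CD8 T-like and 0.00832% in B-like cells. In ceiling cells the Klf2 ratio of the library labelled Cre-positive to the one labelled Cre-negative was 1.75 (exact 95% interval 1.67 to 1.84) in vehicle, 2.9 (2.7 to 3.11) at day 3 and 1.33 (1.27 to 1.39) at day 7. The interval covers counting error only. The log2 difference over the 3 was 0.99 ± 0.28 (SE, edgeR adjusted p = 0.699). Klf4 ratios were 2.37 (2.21 to 2.55), 3.09 (2.77 to 3.47) and 0.828 (0.773 to 0.887), so the direction turned at day 7 (0.95 ± 0.33, edgeR adjusted p = 1). Without either day 3 library, left out in turn, the ceiling differences were 0.65 ± 0.17 for Klf2 and 0.52 for Klf4. In the lymphatic-like class as a whole Klf2 differed by 0.87 ± 0.28 and Klf4 by 0.90 ± 0.28 (edgeR adjusted p = 1 for each).

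Blood vessels showed less. Klf2 differed by 0.04 ± 0.13 in HEV-like, 0.14 ± 0.14 in capillary-like and 0.30 ± 0.16 in arterial-like cells. The test of blood endothelial-like against lymphatic-like cells gave -0.71 ± 0.21 for Klf2 (edgeR adjusted p = 0.949) and -0.68 ± 0.21 for Klf4 (edgeR adjusted p = 0.993). In lymphocytes of the CD45 libraries, where Cdh5, the gene whose promoter drives the Cre, was at 0 CPM in CD4 T-like and CD8 T-like cells and at most 0.748 CPM in B-like cells, Klf2 differed by -0.17 ± 0.13 in CD4 T-like, -0.19 ± 0.11 in CD8 T-like and -0.14 ± 0.16 in B-like cells. The CD4 T-like ratios were 0.648 in vehicle, 1.36 at day 3 and 0.891 at day 7, so the libraries did not agree in direction. Without the day 3 library labelled Cre-negative the Klf2 difference in CD4 T-like cells was -0.46, and without the one labelled Cre-positive it was -0.45. Both values rest on the same vehicle and day 7 libraries, because a day 3 library left alone adds nothing to the label difference. They are therefore not separate results, and they leave out the treatment whose ratio was 1.36. Edn1 in capillary-like cells had an unadjusted p under 0.05 as well (0.65 ± 0.16, edgeR adjusted p = 1). Nos3 and Piezo1 differed by label by no more than 0.20 in size in any class.

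**Figure D3:**
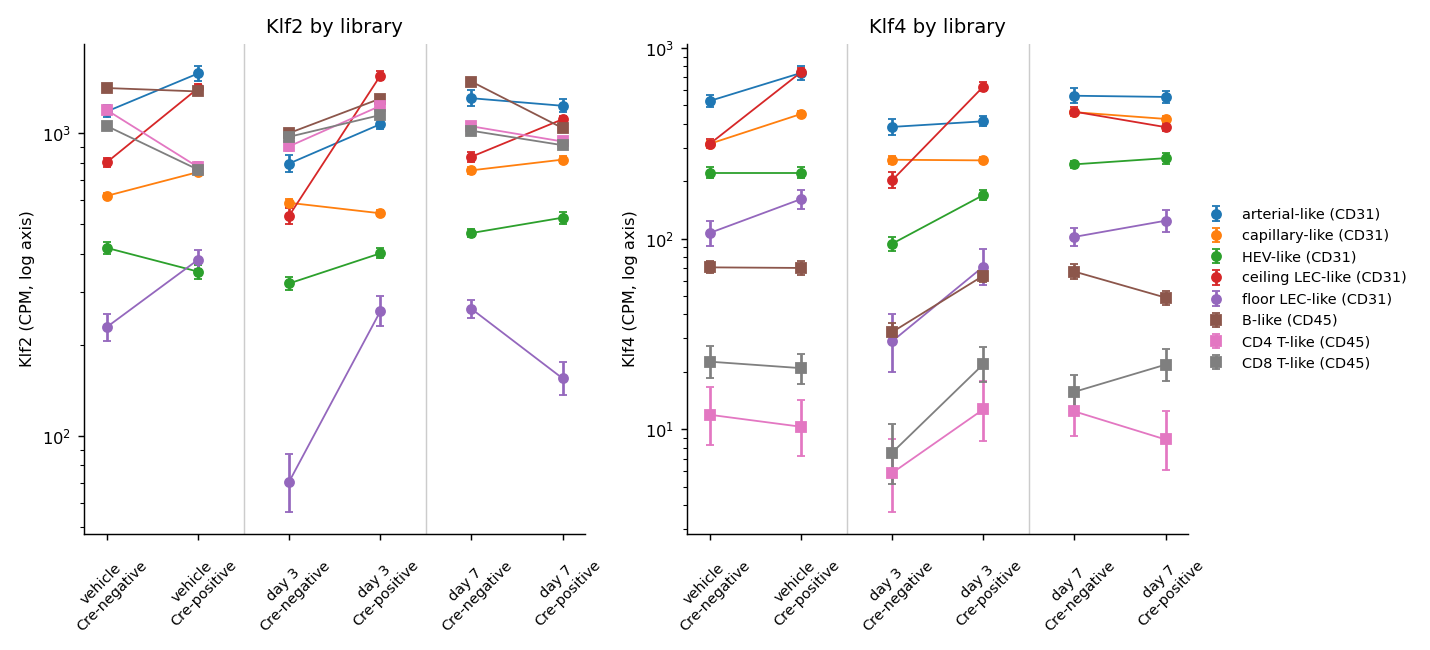
Klf2 (left) and Klf4 (right) in CPM on a log axis for each library, in 5 endothelial classes of the CD31 libraries and 3 lymphocyte classes of the CD45 libraries; bars are exact 95% Poisson intervals and lines join the 2 labels of a treatment. Ceiling lymphatic-like Klf2 climbs from 534 to 1548 CPM between the day 3 libraries, and Klf4 of most classes is lowest in the day 3 library labelled Cre-negative.

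A single pair of libraries recurs in these results. In the day 3 libraries labelled Cre-negative, 1 for each fraction, Klf4 was the lowest of the 6 in 18 of 23 classes and the highest in 0, and Klf2 was the lowest in 11. These 23 classes include lymphocytes, fibroblasts and myeloid cells. The summed dissociation list was also lowest there in 11 of 23 classes, and highest in the day 3 libraries labelled Cre-positive in 12. It was lowest in 7 classes in the day 7 libraries labelled Cre-positive and in 4 in the vehicle ones labelled Cre-positive. Klf4 was lowest in these in 0 and 1 classes. The list holds 19 genes that digestion is known to raise, among them Fos, Jun, Egr1 and the heat-shock gene Hspa1a. In arterial-like cells it summed to 5949, 10069, 3864, 5468, 7833 and 4570 CPM and in HEV-like cells to 16210, 15440, 11456, 9793, 15167 and 10634 CPM. The day 3 values are below both vehicle values in each of these classes. The genes of the list did not all move together, which a sum hides. In HEV-like cells Fos was 1990, 1893, 558, 899, 1820 and 1345 CPM. Hspa1a was 429, 429, 1239, 606, 264 and 377 CPM there, highest in the library where Fos was lowest. The relation of Klf2 and Klf4 to single genes of the list was not tested.

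At day 3 the dissociation list fell in part: 6 of 19 genes were called lower in arterial-like cells, where 1.87% of all genes were, with a list median of -0.66 and 19 of 19 values below 0, and 7 of 19 in HEV-like cells, where 0.819% of all genes were, with a median of -0.78. The median of all genes was -0.01 and 0.00 in these classes. Among those called, the most abundant were in arterial-like cells Fos (-1.39 ± 0.35), Btg2 (-1.18 ± 0.22) and Egr1 (-1.36 ± 0.29), with edgeR adjusted p of 0.0353, 0.00865 and 0.0165. In HEV-like cells they were Fos (-1.40 ± 0.27), Zfp36 (-1.78 ± 0.27) and Egr1 (-1.73 ± 0.27), with edgeR adjusted p of 0.0471, 0.0317 and 0.0329. By label, the list's median was 0.55 in ceiling lymphatic-like cells with 19 of 19 values above 0 and 0 called, against -0.26 in HEV-like and 0.24 in arterial-like cells. Its part in the Klf2 and Klf4 differences was not tested beyond the values that follow.

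**Figure D4:**
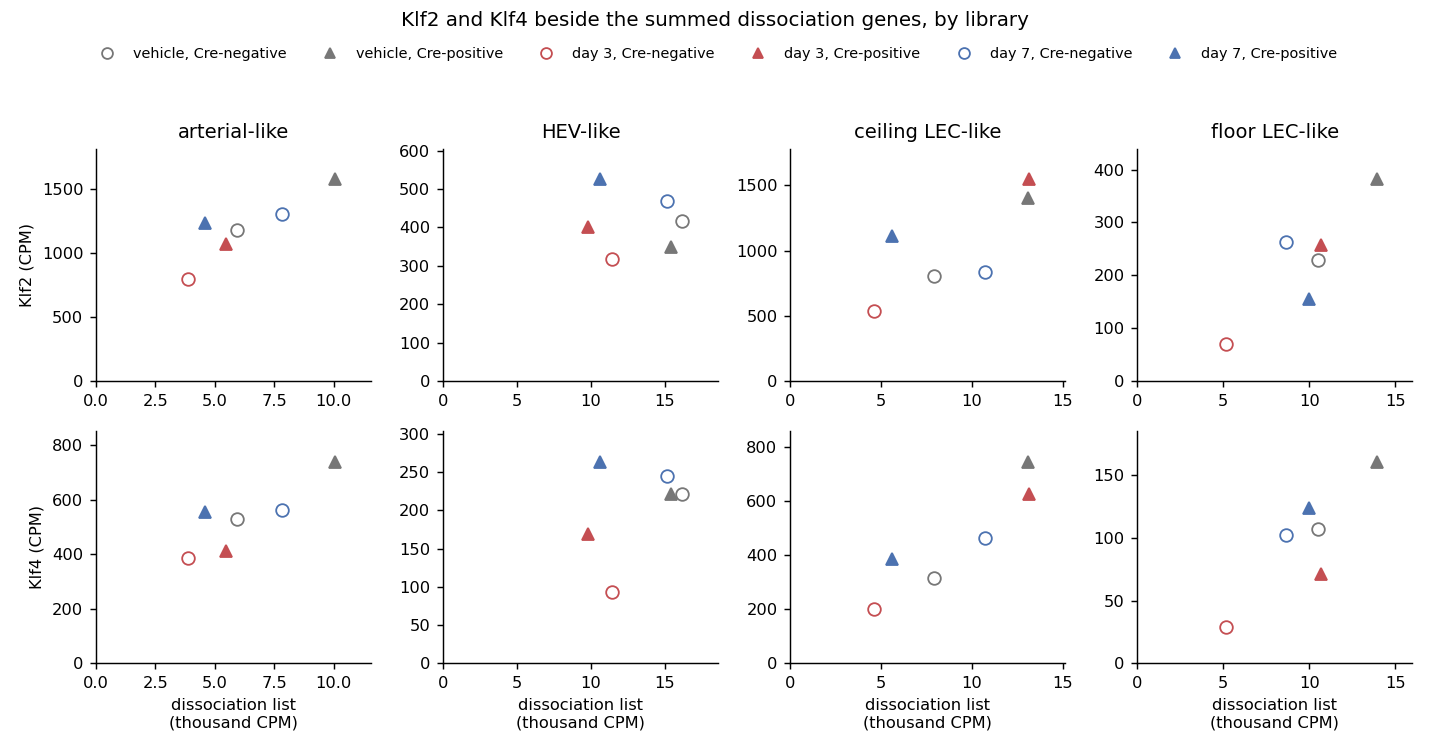
Klf2 (upper row) and Klf4 (lower row) in CPM against the summed dissociation list (axis in units of 1000 CPM), 1 point per CD31 library, for 4 endothelial classes. In ceiling lymphatic-like cells Klf4 runs from 202 CPM at the lowest list sum to 626 and 745 CPM at the highest, and in HEV-like cells the highest Klf4, 264 CPM, lies at a list sum of 10634 CPM and the lowest, 93.9 CPM, at 11456 CPM.

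Over the 6 libraries Klf4 in ceiling lymphatic-like cells followed the list with Pearson r = 0.90 (exact permutation p = 0.0167) and Spearman rho = 0.89 (exact permutation p = 0.0333), and r = 0.98 without the 2 libraries farthest from the median of the list. For Klf2 in CD4 T-like cells r was 0.91 (exact permutation p = 0.0125) and rho 0.94 (p = 0.0167), and r was 0.77 without the 2 farthest. In floor cells r was 0.91 for Klf2 (exact permutation p = 0.0167, rho 0.66, p = 0.175), and it rests on the 2 farthest libraries, since r was -0.16 without them. In HEV-like cells r was -0.08 for Klf2 and 0.38 for Klf4 over the 6 (exact permutation p = 0.872 and 0.528), but 0.69 and 0.97 over the 4 libraries left without the 2 farthest. In capillary-like cells r was 0.31 for Klf2 and 0.59 for Klf4 (exact permutation p = 0.511 and 0.251), turning to -0.61 and -0.42 without the 2 farthest. In arterial-like cells r was 0.87 for Klf2 and 0.82 for Klf4 (exact permutation p = 0.0236 and 0.0431, rho 0.83 and p = 0.0583 for each), and 0.45 and 0.24 without the 2 farthest. Edn1 there had r = 0.87 (exact permutation p = 0.0278) and Nos3 r = -0.91 (exact permutation p = 0.0139), with 0.90 and -0.83 without the 2 farthest. Of 44 such relations none passed adjustment (smallest adjusted p 0.147).

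Cells without a UMI of Fos, Fosb, Egr1 or Atf3 held less Klf2 and Klf4 in every class examined. The median Klf2 level was 951 CPM in such arterial-like cells against 1206 CPM in all, 479 against 683 CPM in capillary-like, 252 against 409 CPM in HEV-like, 465 against 974 CPM in ceiling and 48.8 against 244 CPM in floor cells. For Klf4 it was 359 against 540, 210 against 369, 96.3 against 222, 116 against 423 and 12.4 against 105 CPM. In these 5 classes Nos3 was between 0.934 and 1.22 times and Piezo1 between 0.898 and 1.29 times its level in all cells. Edn1 was 0.867 times in arterial-like, 0.738 times in capillary-like, 1.28 times in HEV-like and 0.672 times in ceiling cells, and in floor cells 0 against 5.4 CPM. Such cells were 60.9% of arterial-like and 17.3% of HEV-like cells and were shallower, with median UMIs of 5428 against 8609 in HEV-like cells. The order arterial-like, capillary-like, HEV-like held in their medians, whereas the ceiling class, above the capillary-like one in all cells, was at 465 against 479 CPM for Klf2 and at 116 against 210 CPM for Klf4.

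The filter that picked these cells uses genes that themselves differed at day 3, such as Fos and Egr1 in HEV-like cells. Of HEV-like cells it kept 54 of 459 and 74 of 438 in vehicle, and 133 of 510 and 145 of 728 at day 3. The values below therefore compare differently selected cells. In the kept cells the day 3 values of Klf4 lay nearer to 0 in the blood vessel classes. The log2 difference was -0.12 ± 0.27 in HEV-like, 0.03 ± 0.18 in arterial-like, 0.01 ± 0.16 in capillary-like and -0.01 ± 0.16 in blood endothelial-like cells. In ceiling lymphatic-like cells Klf4 differed by -0.34 ± 0.30, against -0.36 ± 0.39 in all cells, and the floor class, with 1 to 6 UMIs of Klf4 a library, was too low to be fitted. Klf4 in HEV-like cells was then 94.7, 97.8, 72.3, 90.4, 98.4 and 130 CPM, from 24 to 83 UMIs a library. Klf2 in HEV-like cells moved away from 0: it was 241, 116, 276, 259, 244 and 393 CPM, from 51 to 283 UMIs a library, with a difference of 0.76 ± 0.33 at day 3 (edgeR adjusted p = 0.175), where all cells had -0.08, and 0.94 ± 0.33 at day 7 (edgeR adjusted p = 0.988), where all cells had 0.42. Both had an unadjusted p under 0.05. The label difference of Klf2 in ceiling lymphatic-like cells was 1.28 ± 0.22 and was called (edgeR adjusted p = 0.0202, with 0.0331% of all genes called), with 252, 563, 368, 670, 210 and 642 CPM, and all 3 libraries labelled Cre-positive lay above the 3 labelled Cre-negative. These sums rest on 175 of 634, 54 of 323, 115 of 289, 54 of 278, 163 of 521 and 225 of 654 ceiling cells, so the kept share differed between libraries here too. Klf4 in them was 88.9, 226, 101, 110, 122 and 181 CPM (0.76 ± 0.24, edgeR adjusted p = 0.967).

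**Figure D5:**
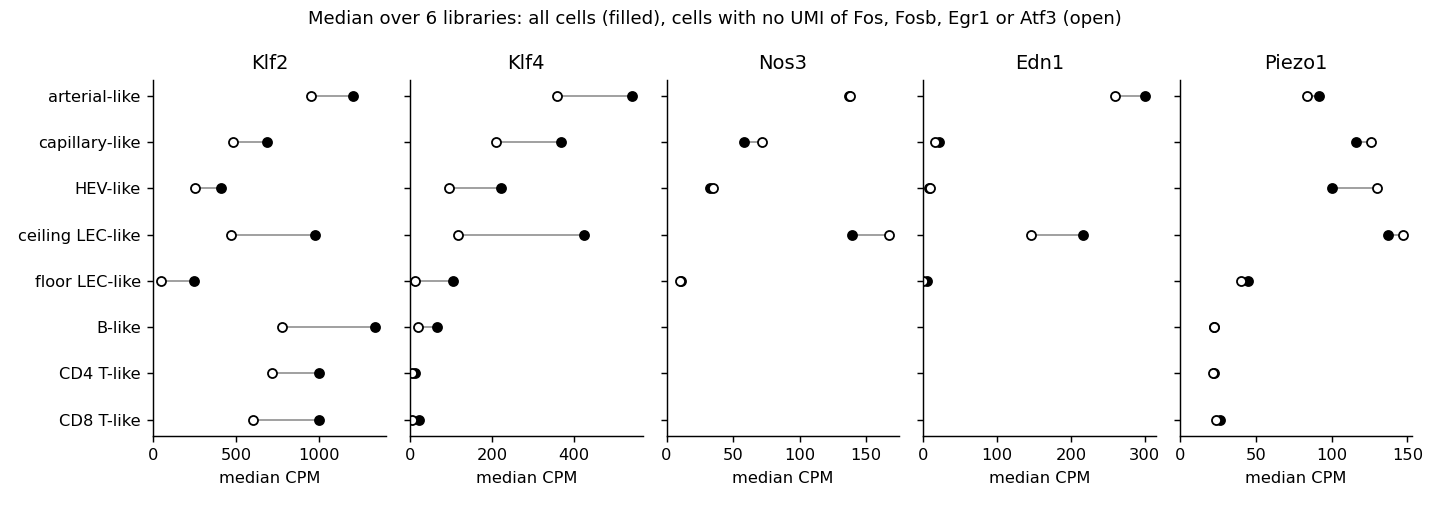
Median level over 6 libraries (x axis, CPM) in all cells of a class (filled) and in cells with no UMI of Fos, Fosb, Egr1 or Atf3 (open), by class (rows) and gene (panels). Klf2 and Klf4 are lower in the open points of all 8 classes, Edn1 in 4 of its 5, while Nos3 and Piezo1 move less and in both directions.

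Genes of the pathway were also looked at as lists, against 1.96% of all genes called higher and 1.87% called lower at day 3 in arterial-like cells and 1.28% and 0.819% in HEV-like cells. The lists include the members themselves. Piezo1 is among the mechanosensors, and Nos3 among the genes induced by Klf2 or Klf4 and the nitric oxide genes. Edn1 is in the endothelin list, and Klf2 and Klf4 are among the Kruppel-like factors. Of 12 mechanosensor genes, 1 rose at day 3 in arterial-like cells, the VEGF receptor Kdr (0.67 ± 0.17, edgeR adjusted p = 0.0342), with a list median of 0.20, and 0 of 12 were called in HEV-like cells (median -0.32). Of the 10 genes of the ERK5 route to Klf2 and Klf4, 0 were called in either class, and the most abundant, Mef2c, differed by -0.14 ± 0.17 in arterial-like and -0.36 ± 0.13 in HEV-like cells. Among genes that Klf2 or Klf4 induce in endothelium, 2 of 10 tested rose in arterial-like cells, the gap-junction genes Gja5 (1.27 ± 0.17, edgeR adjusted p = 0.000903) and Gja4 (0.89 ± 0.20, adjusted p = 0.0204), with a list median of 0.00. In HEV-like cells 2 of 10 rose, the arginine-cycle enzyme Ass1 (1.11 ± 0.18, edgeR adjusted p = 0.0395) and the haem-degrading enzyme Hmox1 (1.64 ± 0.23, adjusted p = 0.0272), with a median of -0.02.

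Against the same 1.96% higher and 1.87% lower, of the nitric oxide genes in arterial-like cells 1 of 10 rose, Ddah1, which degrades an inhibitor of the synthase (1.11 ± 0.23, edgeR adjusted p = 0.0167), and 1 fell, the cGMP-dependent kinase Prkg1 (-1.68 ± 0.37, adjusted p = 0.0204). Of 11 Kruppel-like factors tested there 1 fell, Klf12 (-0.61 ± 0.16, edgeR adjusted p = 0.0487), with a list median of -0.42 and 10 of 11 values below 0. Those below 0 include Klf2 (-0.52) and Klf4 (-0.61), and Klf6 belongs to this list and to the dissociation list. Of 3 YAP targets tested 1 rose, Ccn1 (1.25 ± 0.18, edgeR adjusted p = 0.00169). In the endothelin list, of which 3 genes were tested in each of these classes, 0 were called. S1pr1, which Klf2 controls in lymphocytes, was not called in CD4 T-like, CD8 T-like or B-like cells for label, day 3 or day 7, and differed by 0.02 ± 0.13 by label in CD4 T-like cells. Outside arterial-like and HEV-like cells the only list gene called was Socs3 in B-like cells at day 3 (1.61 ± 0.18, edgeR adjusted p = 0.0311), a member of the dissociation list, and by label or at day 7 none was.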

How the data were processed

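The authors deposited UMI counts for each gene and barcode, made with Cell Ranger 7.0.1 on mm10 per the submitters' processing notes, while the file headers name Cell Ranger 4; every barcode seen is listed. Barcodes with at least 1000 UMIs, 500 genes and no more than 10% of UMIs from mitochondria counted as cells. Scrublet's own threshold marked 0 to 228 barcodes a library and had not worked in 3 libraries, so the highest scores were removed instead (4.78% to 9.31%). In the CD31 vehicle library labelled Cre-negative, the removed barcodes had a median of 3932.5 UMIs, against 4325 in those kept. In the CD31 day 3 library labelled Cre-positive it was 2203 against 3433, so doublets may remain in both. Removed barcodes had more UMIs than kept ones in every other library. Leiden clusters (scanpy 1.11.5) were named from markers after their leading genes were seen. Cycling endothelial, haemoglobin-led, mixed few-UMI and other unnamed clusters and the mRFP feature were left out of the classes compared. UMIs were summed per class and library and fitted with edgeR 4.0.16 (TMM, filterByExpr, quasi-likelihood F test, treatment and label as terms, 2 residual degrees of freedom), with Benjamini-Hochberg adjustment over all genes tested. The script was tested on simulated counts. DESeq2 1.42.0, other filters, cell sets, free RNA subtraction and left-out libraries were alternatives. Levels are CPM with exact Poisson intervals. The 5 genes are all named, with at most 3 genes of each list in a comparison, those of highest CPM among the called ones. Coordinates come from GENCODE (GRCm38). The genes and lists were chosen with earlier results of these data known.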

Additional observations from a re-analysis of the deposited data

How the results depend on the processing

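No call among the 5 genes stood in the main fits, and within classes 21 appeared under 25 other settings, out of 2109 values, of which 223 changed sign. With no low-count filter 1 or 2 members were called at day 3: 2 in HEV-like cells (Klf4 -0.75 and Edn1 1.09, adjusted p = 0.0357 for Edn1), and 1 each in arterial-like (Klf4 -0.59), floor lymphatic-like (Klf4 -1.47) and B-like cells (Klf4 -0.56). The DESeq2 Wald test called 1 at day 3 in HEV-like and 1 in blood endothelial-like cells, Klf4 each time, and the stricter cell filter 1, Klf4, in arterial-like cells. In cells without Fos, Fosb, Egr1 or Atf3 UMIs 1 member was called by label in ceiling cells, Klf2, and 1 for the arterial-like minus capillary-like response at day 3, Edn1 (-1.38). Leaving out 1 library at a time gave 0 to 1 called at day 3 in arterial-like, B-like and CD8 T-like cells, 0 to 2 in floor cells, 0 to 1 by label in CD4 T-like cells, and 0 to 1 for the arterial-like minus capillary-like difference by label (-1.01 and -1.02 without either vehicle library), at day 3 (-1.42 without the vehicle library labelled Cre-negative, -0.90 without either day 7 library) and at day 7 (-0.94 without the day 7 library labelled Cre-negative), each time Edn1. A left-out library leaves its treatment with 1 library, assumed to vary like the other groups. That library adds nothing to the label difference or to a comparison of the other treatments. Such calls without either library of a treatment are therefore the same result, though counted separately here. They are the Klf2 label calls in CD4 T-like cells and the Edn1 label calls. The Edn1 calls at day 3 and the Klf4 calls in arterial-like cells without either day 7 library are others. Klf4 at day 3 was called in CD8 T-like (-1.50) and B-like cells (-1.23) without the day 3 library labelled Cre-positive, in B-like cells also without the day 7 library labelled Cre-negative (-0.61), in floor cells without either vehicle library (-1.39 and -1.49) or the day 7 library labelled Cre-positive (-1.48), and in arterial-like cells without the vehicle library labelled Cre-negative or either day 7 library (-0.82, -0.61 and -0.61). Klf2 was called in floor cells without the vehicle library labelled Cre-negative (-1.05). The cause was not tested. Under the settings of these calls the share of all genes called was 3.41% to 7.27% at day 3 in arterial-like and HEV-like cells, 3.46% in blood endothelial-like, 0.514% to 5.74% in floor, 0.28% to 3.56% in B-like and 0.26% in CD8 T-like cells, 0.465% to 0.619% by label in CD4 T-like and 0.0331% in ceiling cells, and 0.085% to 2.39% for the arterial-like minus capillary-like difference. The count of all genes called ranged over the settings from 1 to 1499 at day 3 in HEV-like and from 13 to 723 in arterial-like cells. The order of neighbouring classes gave 0 calls also from per-cell means. Of 140 shares of cells, 120 moved by more than 1 SD when thinned. Depth limits Nos3 and Edn1 in lymphocytes and Edn1 in HEV-like and floor cells. No paired analysis by replicate number was possible because each group is 1 library and the labels give no such numbers; the class order is paired within libraries, and the fits set labels against each other within treatments.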
